A study of Arabidopsis thaliana with 12 samples.

Results

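Plants that overexpressed CHLM were compared with Col-0 wild type after both had been given β-estradiol, the steroid that switches on the transgene. The comparison takes the 6 arrays labelled with estradiol, 3 of the CHLM line and 3 of Col-0, out of the 12 arrays of the series, and covers all 22746 probe sets that are not AFFX controls. The CHLM overexpression plants and their Col-0 controls were both in the Col-0 background, were both treated with 20 µM β-estradiol, and were both sampled as green tissue of seedlings 3 weeks old. They had been grown on soil with 10 h of light and 14 h of dark at 23 °C after 3 days of cold treatment. The other 6 arrays held a line with reduced CHLD (RNA interference) and Col-0, both given 20 µg/ml dexamethasone. They enter the estimate of spread behind every SE and p-value of the main fit, since all 12 arrays were fitted together. Their own signals are quoted where the lines or their controls are set side by side. The replicates are called biological in the labels, which do not say whether the CHLM line is 1 transgenic clone, which promoter drives the receptor, how many seedlings were pooled, or how long the inducer acted. No CHLM plants without inducer were among the arrays used here.

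CHLM is the methyltransferase that turns magnesium protoporphyrin IX, the product of magnesium chelatase, into its monomethyl ester. This is an early step of the branch of tetrapyrrole synthesis that leads to chlorophyll rather than to heme. Magnesium porphyrins have long been discussed as signals between plastid and nucleus, and free tetrapyrroles sensitise tissue to light, so the pathway is tightly balanced in green leaves.

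Every signal below is a deposited log2 value of an Affymetrix ATH1 probe set, so a difference of 1 is a doubling of signal. The 12 arrays had medians between 6.26 and 6.32. Among the controls, Col-0 replicate 1 stood apart. Its signals correlated at 0.990 with those of replicates 2 and 3, which correlated at 0.997 with each other, while the 3 CHLM arrays correlated at 0.994 to 0.996. With the Col-0 dexamethasone arrays replicate 1 correlated at 0.993 to 0.994, higher than with its own group. Replicates 2 and 3 correlated with those arrays at 0.993 to 0.994 as well. With the CHLM arrays replicate 1 correlated at 0.983 to 0.986, and replicates 2 and 3 at 0.990 to 0.992. Replicates 2 and 3 were thus about as close to the CHLM arrays as to replicate 1. In 170 probe sets replicate 1 lay at least 2-fold above both other Col-0 arrays and in 91 at least 2-fold below both, and neither happened in any probe set for replicate 2 or for replicate 3. Most results are therefore given with all arrays and again without that array, and the rest with all arrays only. The green tissue markers that could be measured were bright. RCA, the activase of Rubisco, had 14.08, 14.09 and 14.06 in CHLM plants and 14.03, 14.00 and 14.05 in Col-0. The others, the plastid transcripts rbcL and psbA, lay between 9.14 and 10.27 on the estradiol arrays. They passed the threshold in opposite directions, rbcL higher by 0.50 and psbA lower by 0.57 in CHLM plants, as given below. EXPA7, a root hair expansin, lay between 3.63 and 3.85 in CHLM plants and between 3.55 and 3.75 in Col-0, and CLV3, a marker of the shoot meristem, between 3.25 and 3.42 in CHLM plants and between 3.19 and 3.48 in Col-0, all near the floor of the arrays. The guard cell lineage genes FMA, SPCH and MUTE differed by -0.22 to 0.29 and did not pass the threshold in either fit. None of the trichome, vascular and flower markers had a probe set with a gene name.

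CHLM itself had signals of 14.48, 13.96 and 14.24 in CHLM overexpression plants, against 11.71, 11.72 and 11.68 in Col-0. All 3 overexpressing arrays lay above all 3 controls, and the transcript was already bright in wild type. The difference was 2.52 on the log2 scale (5.75-fold, SE 0.127, n = 3 per group, limma adjusted p = 1.30e-07), and without Col-0 replicate 1 it was 2.53 (SE 0.143, adjusted p = 7.34e-08). The signal of 14.48 is close to 14.49, the highest value on any of the 12 arrays. The size of the rise may therefore be understated. In the plants of the dexamethasone arrays CHLM lay between 11.55 and 11.86 in the CHLD line and between 11.55 and 11.80 in Col-0.

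With CHLM included, 2217 of the 22746 probe sets (9.75%) passed the threshold, a limma adjusted p under 0.05. There were 1238 higher (5.44% of all) and 979 lower (4.3%) in CHLM plants. Without Col-0 replicate 1 the count was 1501 (6.6%), with 746 higher (3.28%) and 755 lower (3.32%). Of the probe sets called with all arrays, 1256 were called in the same direction without that array, 656 higher and 600 lower. They make up 56.7% of the 2217 and 83.7% of the 1501, and 0 probe sets were called in opposite directions. Most changes were small, with a median size of 1.40-fold among the calls with all arrays and 1.47-fold without replicate 1. Changes of at least 2-fold, found in 153 probe sets (0.673%), were mainly falls: 33 probe sets (0.145%) were at least 2-fold higher and 120 (0.528%) at least 2-fold lower in CHLM plants, and without replicate 1 these counts were 35 and 146. Both fits shared 129 of them, 27 higher and 102 lower. The 3 CHLM arrays did not overlap the 3 Col-0 arrays in 5992 probe sets (26.3%). CHLM replicate 1 also weighed on the total, which was 1156 without it.

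**Figure D1:**
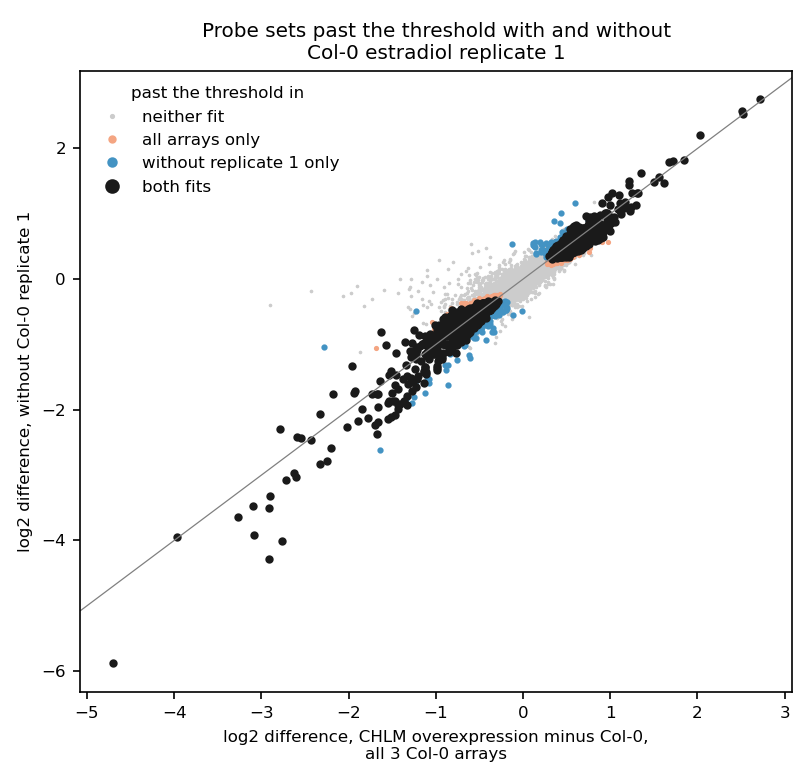
Each point is a probe set, with its log2 difference (CHLM overexpression minus Col-0) from all 6 estradiol arrays on the x axis and the same difference without Col-0 replicate 1 on the y axis, and a diagonal where the values would be equal. The 1256 black points passed the threshold in both fits, and the grey arm that runs left near 0 on the y axis holds probe sets with a negative difference that was much smaller without replicate 1 and passed in neither fit.

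The largest rises apart from CHLM were led by AT3G23450, which had 8.22, 8.13 and 8.34 in CHLM plants and 5.59, 5.54 and 5.42 in Col-0. AT3G17050, listed as a pseudogene in RefSeq, had 7.41, 7.55 and 7.67 in CHLM plants and 5.16, 4.96 and 4.99 in Col-0. Both transcripts were clearly separated between the groups and differed little within them. AT3G23450 was 6.56-fold higher (log2 difference 2.71, SE 0.149, adjusted p = 2.85e-07; without replicate 1 2.75) and AT3G17050 5.68-fold higher (2.51, SE 0.151; without replicate 1 2.57). The plastid transcript psbD, the gene of the reaction centre protein D2, followed with 7.91, 8.52 and 8.21 in CHLM plants and 6.52, 5.96 and 6.06 in Col-0. Its rise was 4.09-fold (log2 difference 2.03, SE 0.165, adjusted p = 1.37e-05), and 4.61-fold without replicate 1, the highest of the controls.

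Other large rises that passed with and without replicate 1 were those of AT2G27420 (1.85, and 1.82 without that array), AT5G46730 (1.72 and 1.80), AT1G65490 (1.51 and 1.49), AT3G44970 (1.31 and 1.32), AT2G35750 (1.25 and 1.32) and AT4G16240 (1.24 and 1.1). AT1G65490 was the tightest of them, with 10.00, 9.94 and 10.04 in CHLM plants and 8.45, 8.51 and 8.5 in Col-0. WSD1, an enzyme that makes the wax esters of the cuticle, had 6.68, 6.49 and 7.33 in CHLM plants and 6.02, 5.32 and 5.11 in Col-0. The WSD1 groups did not overlap, and replicate 1 was the control nearest to the CHLM arrays. Its rise was 2.55-fold (1.35, SE 0.223, adjusted p = 0.00321), and 3.07-fold without replicate 1 (adjusted p = 1.64e-04). The plastid transcript ndhG, a subunit of the thylakoid NADH dehydrogenase-like complex, rose 2.46-fold (1.3, SE 0.227; without replicate 1 1.14). All of these calls held when any 1 of the 6 arrays was left out. The probe sets of AT4G16240 and AT2G12050, like those of ccb452, orfX and nad6 below, carry suffixes for probes that may read more than 1 transcript.

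**Figure D2:**
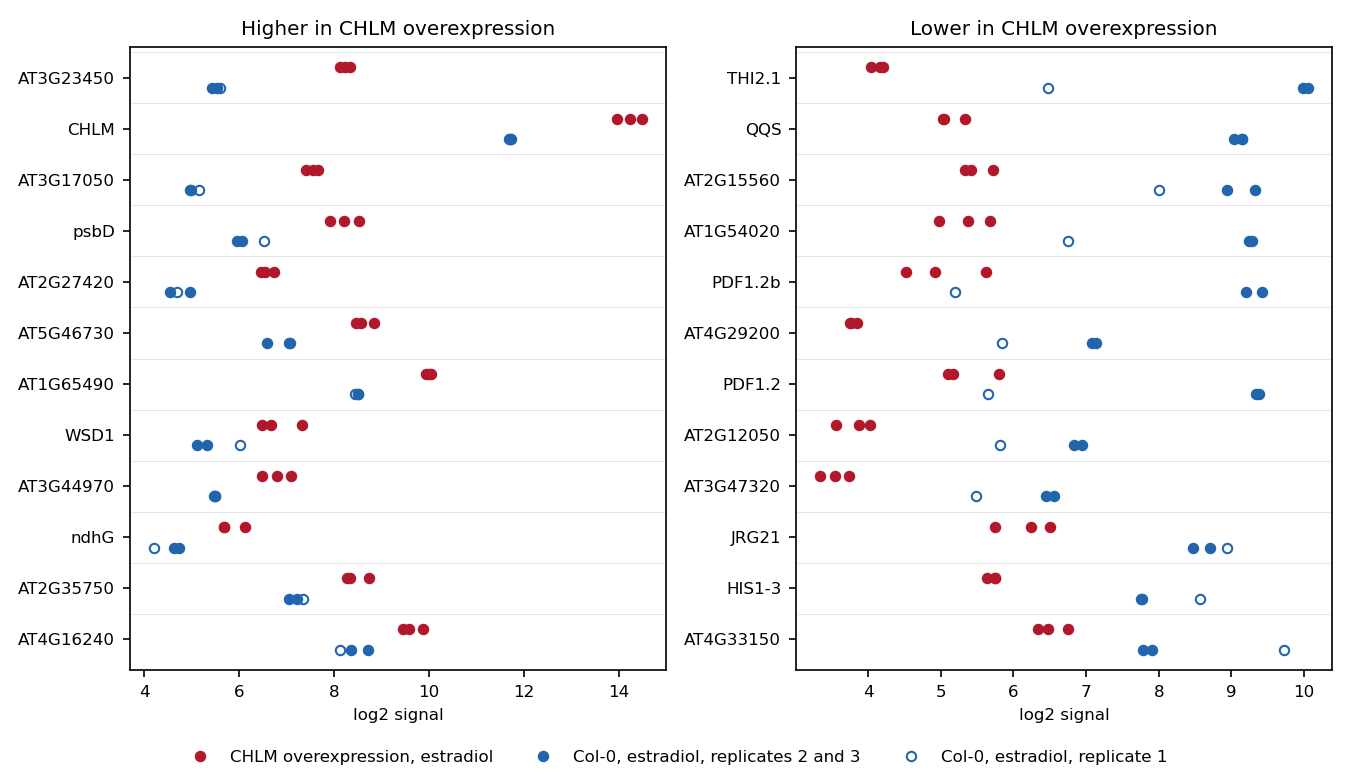
Log2 signal on each of the 6 estradiol arrays for the 12 largest rises (left panel) and the 12 largest falls (right panel) that passed the threshold with and without Col-0 replicate 1. Red points are CHLM overexpression arrays, filled blue points Col-0 replicates 2 and 3, and open blue points Col-0 replicate 1, which lies among the CHLM arrays for PDF1.2b and PDF1.2 and above both other controls for AT4G33150 and HIS1-3.

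The most uniform large fall was that of QQS, an Arabidopsis-specific gene known to affect the balance of starch and protein. QQS had 5.04, 5.03 and 5.33 in CHLM plants and 9.14, 9.03 and 9.14 in Col-0. No array of either group came near the other, and replicate 1 was level with the other controls. The fall was 15.7-fold (log2 difference -3.97, SE 0.153, adjusted p = 6.74e-09; without replicate 1 -3.95, adjusted p = 3.04e-09). AT2G15560 had 5.41, 5.72 and 5.33 in CHLM plants and 8.01, 9.32 and 8.94 in Col-0, a fall of -3.27 (SE 0.234, adjusted p = 3.97e-06), or -3.64 without replicate 1. AT4G29200 had 3.75, 3.77 and 3.85 in CHLM plants and 5.84, 7.14 and 7.08 in Col-0, a fall of -2.90 (SE 0.247), or -3.32 without replicate 1. The transcribed pseudogene AT2G12050 (-2.71, without replicate 1 -3.07) and the pseudogene AT3G47320 (-2.62, without replicate 1 -2.97) showed the same arrangement. The CHLM signals of AT4G29200, AT2G12050 and AT3G47320 lay near the floor of the arrays, so their sizes of fall can be read only as lower bounds. In all 4 of these genes replicate 1 was the lowest of the 3 controls and still above every CHLM array. AT1G54020 was more scattered, with 5.68, 4.97 and 5.37 in CHLM plants and 6.75, 9.24 and 9.28 in Col-0, and its fall was -3.08 (SE 0.663, adjusted p = 0.0118), or -3.92 without replicate 1.

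Several of the largest falls were in genes of the jasmonate response, which plants raise against wounding and fungi. The gene for the thionin THI2.1, a small antimicrobial protein, had 4.16, 4.04 and 4.21 in CHLM plants and 6.48, 10.05 and 9.99 in Col-0. The CHLM arrays lay together near the floor, and the controls were split, with replicate 1 far below replicates 2 and 3 yet above all CHLM arrays. The fall was -4.70 (26.1-fold, SE 0.83, adjusted p = 0.00487), and -5.88 (59.0-fold, SE 0.592, adjusted p = 3.74e-05) without replicate 1. With the CHLM arrays near the floor, both sizes can be read only as lower bounds. The defensin gene PDF1.2 had 5.17, 5.10 and 5.80 in CHLM plants and 5.65, 9.38 and 9.34 in Col-0, and its near-identical relative PDF1.2b had 4.52, 4.92 and 5.62 in CHLM plants and 5.19, 9.20 and 9.42 in Col-0. In both defensins replicate 1 lay inside the range of the CHLM arrays. The probe set of PDF1.2b carries the suffix that marks probes shared with similar transcripts, so the 2 genes may not have been measured apart.

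PDF1.2b fell by 2.92 with all arrays (SE 0.79, adjusted p = 0.0335) and by 4.29 without replicate 1 (SE 0.324, adjusted p = 2.08e-06). Its call ended without CHLM replicate 1 or 2 or Col-0 replicate 2 or 3 (adjusted p between 0.0834 and 0.114). PDF1.2 fell by 2.77 with all arrays (SE 0.737, adjusted p = 0.0315) and by 4.0 without replicate 1 (adjusted p = 1.06e-05). That call ended without any of the 3 CHLM replicates or without Col-0 replicate 2 or 3 (adjusted p between 0.0505 and 0.106). On the dexamethasone arrays of Col-0 the signal of PDF1.2 was 5.14, 5.26 and 5.31, that of PDF1.2b 5.08, 4.98 and 5.35, and that of THI2.1 6.48, 8.40 and 6.08. For both defensins these levels are close to those of the CHLM plants and of Col-0 estradiol replicate 1, and far below Col-0 estradiol replicates 2 and 3.

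JRG21, a jasmonate-regulated oxygenase, showed no such split of the controls. It had 6.5, 5.74 and 6.24 in CHLM plants and 8.94, 8.47 and 8.70 in Col-0, with replicate 1 the highest control. The fall was 5.83-fold (-2.54, SE 0.296, adjusted p = 3.18e-04; without replicate 1 -2.42, adjusted p = 4.69e-04), and no left-out array ended it. AT5G05600, listed with the jasmonate genes, had 8.73, 8.82 and 8.61 in CHLM plants and 9.67, 9.93 and 9.86 in Col-0, a fall of -1.1 (SE 0.201, adjusted p = 0.00552; without replicate 1 -1.17). Of 12 listed jasmonate response genes 6 were measured. Of these 5 fell and 0 rose, in both fits, where 4.3% of all probe sets fell with all arrays. The median difference of the 6 was -2.66, and -3.21 without replicate 1, against 0.02 for all probe sets in both fits. The 5 include PDF1.2 and PDF1.2b, which may not have been measured apart. Both had Col-0 replicate 1 inside the range of the CHLM arrays, and with all arrays both calls ended without Col-0 replicate 2 or 3. LCR67, the measured member without a call, was near the floor in both groups (-0.02). MYC4, a transcription factor of jasmonate signalling, rose by 0.47 (SE 0.108, adjusted p = 0.0164; without replicate 1 0.50), a call that ended without CHLM replicate 3 (adjusted p = 0.0561). JMT, which makes methyl jasmonate, had 4.40, 4.24 and 4.3 in CHLM plants and 4.98, 4.55 and 4.58 in Col-0 and did not pass the threshold (-0.39, adjusted p = 0.155; without replicate 1 -0.25). Its CHLM signals lay near the floor of the arrays, which limits how large a fall could be seen.

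Of 17 measured genes with a defensin, thionin or PDF name 3 rose and 4 fell in both fits, THI2.1, PDF1.2 and PDF1.2b among the falls (5.44% and 4.3% of all probe sets rose and fell with all arrays, 3.28% and 3.32% without replicate 1). PDF1.4, a defensin gene whose CHLM signals lay near the floor, fell by at least 1.24 (SE 0.22, adjusted p = 0.00490; without replicate 1 by 1.37). LCR68, a gene for a small cysteine-rich protein of the defensin family, rose: it had 11.94, 11.54 and 11.82 in CHLM plants and 10.91, 10.91 and 11 in Col-0 (0.83, SE 0.104, adjusted p = 5.87e-04; without replicate 1 0.81). PDF1A and PDF1B, which rose by 0.53 and 0.58, share only the letters of the name. They encode peptide deformylases of the organelles. The PDF1A call ended without CHLM replicate 1 (adjusted p = 0.0595). In whole tissue, fewer cells of a type and less RNA per cell cannot be told apart in any of these falls.

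**Figure D3:**
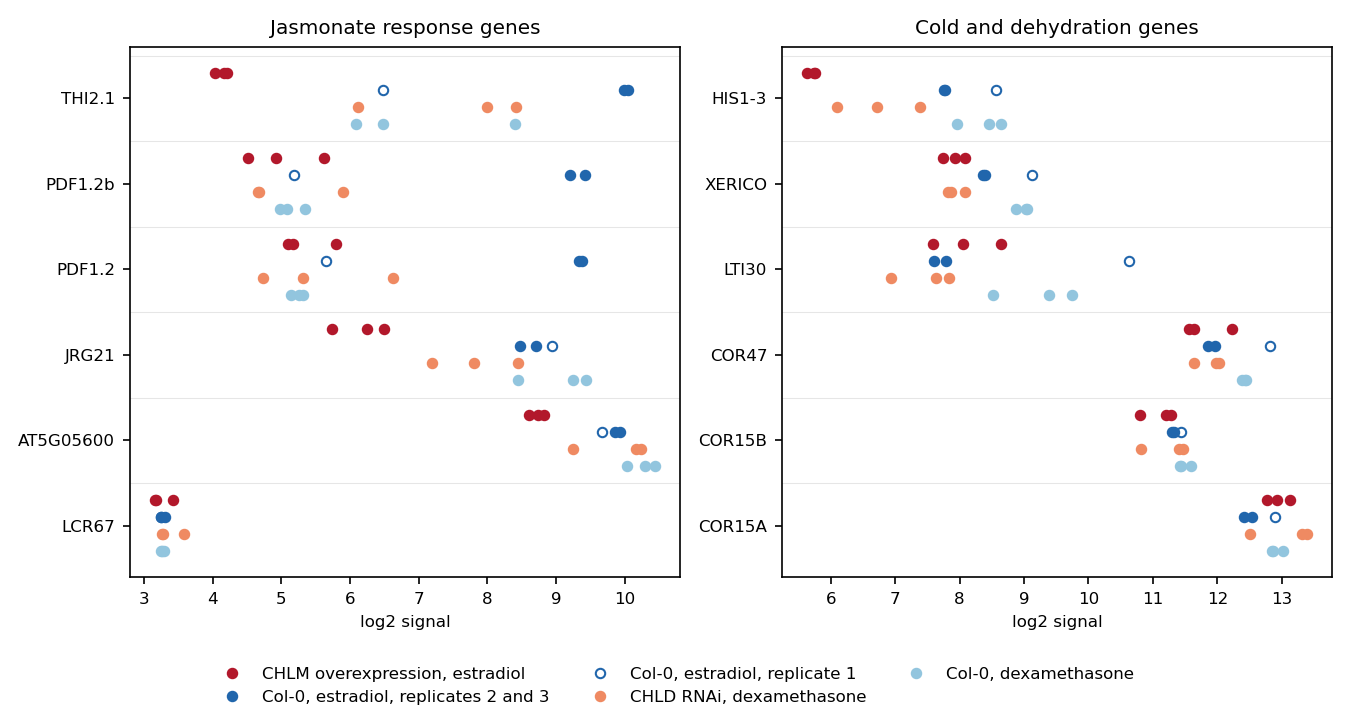
Log2 signal on all 12 arrays for the 6 measured jasmonate response genes (left panel) and the 6 measured cold and dehydration genes (right panel). In each gene the rows from top to bottom are CHLM overexpression, Col-0 under estradiol (replicate 1 open), CHLD RNAi and Col-0 under dexamethasone. Col-0 estradiol replicate 1 lies above replicates 2 and 3 in all 6 cold and dehydration genes.

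Among cold and dehydration genes, HIS1-3, a linker histone induced by drought, had 5.74, 5.63 and 5.75 in CHLM plants and 8.57, 7.77 and 7.76 in Col-0. The groups were far apart although replicate 1 was the highest control, and the fall was 5.02-fold (-2.33, SE 0.277, adjusted p = 3.96e-04), or 4.17-fold without replicate 1 (adjusted p = 3.66e-04). XERICO, a RING-type ubiquitin ligase that raises abscisic acid levels, had 7.75, 7.93 and 8.09 in CHLM plants and 9.13, 8.36 and 8.40 in Col-0. XERICO fell by 0.71 (SE 0.168, adjusted p = 0.0190), and by 0.46 without replicate 1 (SE 0.118, adjusted p = 0.0318), and the call ended without CHLM replicate 1 (adjusted p = 0.0751). The dehydrin gene LTI30 changed sign with that array. It had 8.05, 7.59 and 8.64 in CHLM plants and 10.63, 7.61 and 7.79 in Col-0, so that its difference was -0.58 with all arrays and 0.39 without replicate 1, neither past the threshold. Of 26 listed cold and dehydration genes 6 were measured. Of these 2 fell and 0 rose in both fits (4.3% of all probe sets fell, and 3.32% without replicate 1). The median of the 6 was -0.49, and -0.16 without replicate 1. Col-0 replicate 1 was above replicates 2 and 3 in all 6.

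Of 19 listed clock genes 3 were measured, and 2 of these fell in both fits. Among all probe sets 4.3% fell with all arrays and 3.32% without replicate 1. GI, which couples the clock to flowering, had 8.30, 8.34 and 8.26 in CHLM plants and 9.09, 8.92 and 8.95 in Col-0. It fell 1.61-fold (-0.69, SE 0.0933, adjusted p = 9.98e-04; without replicate 1 -0.63, adjusted p = 0.00242), and AT4G33980 by 0.64 (SE 0.129, adjusted p = 0.00890; without replicate 1 by 0.55). The third measured member, COR27, had 4.33, 3.90 and 3.92 in CHLM plants and 6.05, 4.43 and 4.25 in Col-0. Replicate 1 was the control that stood out, and the differences of -0.86 with all arrays and -0.29 without replicate 1 did not pass. The CHLM signals of COR27 lay near the floor of the arrays, which limits how large a fall could be seen.

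Genes of amino acid breakdown and autophagy were next. AT4G33150, which encodes the bifunctional enzyme of lysine breakdown (LKR/SDH), had 6.47, 6.75 and 6.34 in CHLM plants and 9.73, 7.79 and 7.91 in Col-0. The fall held in both fits at different sizes, -1.96 (SE 0.362, adjusted p = 0.00592) with all arrays and -1.33 (SE 0.154, adjusted p = 1.61e-04) without replicate 1. IVD, MCCA and MCCB, the other measured genes of 13 listed for amino acid breakdown, did not pass in either fit. Of 12 measured autophagy genes 5 fell and 0 rose with all arrays (4.3% of all probe sets fell), with a median of -0.35, and 1 fell without replicate 1 (3.32% of all probe sets), with a median of -0.20. Col-0 replicate 1 was above replicates 2 and 3 in 10 of the 12. APG8A, an ATG8 protein that is attached to the growing autophagosome, was the member that passed in both fits. It had 8.01, 7.86 and 8.06 in CHLM plants and 8.98, 8.63 and 8.38 in Col-0, a fall of -0.69 (SE 0.146, adjusted p = 0.0111), or -0.53 without replicate 1 (adjusted p = 0.0296). ATG8E, ATG8F, ATG8G and the conjugating enzyme ATG3 fell by 0.37 to 0.56 with all arrays, and without replicate 1 their adjusted p was between 0.0610 and 0.137. CHLM replicate 1 ended these 4 calls as well, CHLM replicate 2 and Col-0 replicate 2 those of ATG8F and ATG8G, Col-0 replicate 3 that of ATG8G, and CHLM replicate 3 that of ATG3 (adjusted p up to 0.151).

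Few genes of the tetrapyrrole pathway itself were measured, 4 of 14 listed for the chlorophyll branch and 5 of 12 listed for the early steps. Among these the differences outside CHLM were small. CHLI2, the minor form of a magnesium chelatase subunit, had 9.50, 9.64 and 9.56 in CHLM plants and 9.02, 9.20 and 9.13 in Col-0. CHLI2 rose 1.37-fold (0.45, SE 0.0967, adjusted p = 0.0118; without replicate 1 0.40, adjusted p = 0.0383). PORB, a light-dependent protochlorophyllide reductase, had 12.34, 12.56 and 12.44 in CHLM plants and 12.78, 12.94 and 12.82 in Col-0. PORB fell 1.32-fold (-0.40, SE 0.0891, adjusted p = 0.0141; without replicate 1 -0.43, adjusted p = 0.0198), and the call ended without CHLM replicate 1 (adjusted p = 0.0573) or Col-0 replicate 2 (adjusted p = 0.0513). AT1G74470, the geranylgeranyl reductase that makes the phytol tail, stood at -0.01. These 4 are all the genes of the chlorophyll branch that had a named probe set of their own.

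Early steps of the pathway were measured in 5 genes, GSA1, HEMB1, HEME1, HEME2 and HEMA2, of which 0 passed with all arrays. HEME2, a uroporphyrinogen decarboxylase, was nearest, with 10.61, 10.66 and 10.71 in CHLM plants and 10.20, 10.37 and 10.38 in Col-0 (0.34, adjusted p = 0.0529; without replicate 1 0.28, adjusted p = 0.160). HEMA2, a minor glutamyl-tRNA reductase, passed only without replicate 1, at 0.57 (adjusted p = 0.00663), where replicate 1 had 6.68 and replicates 2 and 3 had 6.16 and 5.99. NOL, a chlorophyll b reductase of chlorophyll breakdown, did not pass (0.11). No gene of the heme branch had a named probe set.

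Transcripts of the plastid genome moved both ways, with rises more frequent. Of 69 measured, 13 rose and 3 fell with all arrays, against 5.44% and 4.3% of all probe sets, and 13 rose and 3 fell without replicate 1, against 3.28% and 3.32%. The fits shared 12 of the rises and all 3 falls. The median was 0.07, and 0.10 without replicate 1, and 41 of the 69 differences were above 0. The array labelling starts from the poly(A) tail, which most plastid messages lack, so these signals need not follow the amount of transcript, and they are differences of labelled RNA. Col-0 replicate 1 was above replicates 2 and 3 in 42 of the 69.

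By complex, the cytochrome b6f genes had 3 rises among 6 with all arrays and 2 without replicate 1. For these small classes the share of all probe sets that rose was 5.44% with all arrays and 3.28% without replicate 1. petA, the gene for cytochrome f, rose by 0.76 (SE 0.156, adjusted p = 0.00986; without replicate 1 0.89). In photosystem I and its assembly 2 of 7 rose, psaA by 0.91 (SE 0.22, adjusted p = 0.0208; without replicate 1 1.16) and ycf4 by 0.47. The psaA call ended without CHLM replicate 2 or Col-0 replicate 2 or 3 (adjusted p between 0.0512 and 0.0793). In the NDH complex 2 of 10 rose, ndhG and ndhD (0.59), and among the RNA polymerase subunits rpoC1 rose by 0.80 (SE 0.111, adjusted p = 0.00111; without replicate 1 0.73). The 6 ATP synthase genes had 0 calls and lay between -0.16 and 0.18. rbcL, the large subunit of Rubisco, had 9.65, 9.96 and 9.68 in CHLM plants and 9.29, 9.36 and 9.14 in Col-0, a rise of 0.50 (SE 0.108, adjusted p = 0.0122; without replicate 1 0.51).

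The photosystem II genes spanned the widest range of the plastid classes, from -0.57 to 2.03. Beside the 4.09-fold rise of psbD, psbA, which encodes the D1 partner of the D2 protein, fell. psbA had 9.75, 9.51 and 9.61 in CHLM plants and 10.20, 10.27 and 10.11 in Col-0, a fall of -0.57 (SE 0.108, adjusted p = 0.00664; without replicate 1 -0.57, adjusted p = 0.0136). The other falls were in ribosomal protein genes, rps19 by 0.51 (SE 0.105, adjusted p = 0.00957) and rps4 by 0.38 (adjusted p = 0.0133), and rps2 of the same class rose by 0.46 (adjusted p = 0.0340). The remaining plastid rises were those of petL (0.50) and petD (0.45) of the cytochrome complex, cemA (0.65), an envelope protein gene, and matK (0.52), a splicing factor gene. The Col-0 signals of petD, 3.99, 3.70 and 3.99, lay near the floor, so its rise can be read only as a lower bound. Without replicate 1 petL did not pass (0.37, adjusted p = 0.0774), and psbB, of a core antenna protein of photosystem II, passed instead (0.67, adjusted p = 0.0244). Leaving out single arrays ended the call of rps2 (CHLM replicate 1 or 3, Col-0 replicate 2 or 3), ycf4 (CHLM replicate 2 or 3, Col-0 replicate 2 or 3), petL (any CHLM replicate, Col-0 replicate 1), petD (CHLM replicate 2 or 3, Col-0 replicate 2), cemA (CHLM replicate 2 or 3, Col-0 replicate 3) and ndhD (CHLM replicate 3), with adjusted p between 0.0509 and 0.110.

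**Figure D4:**
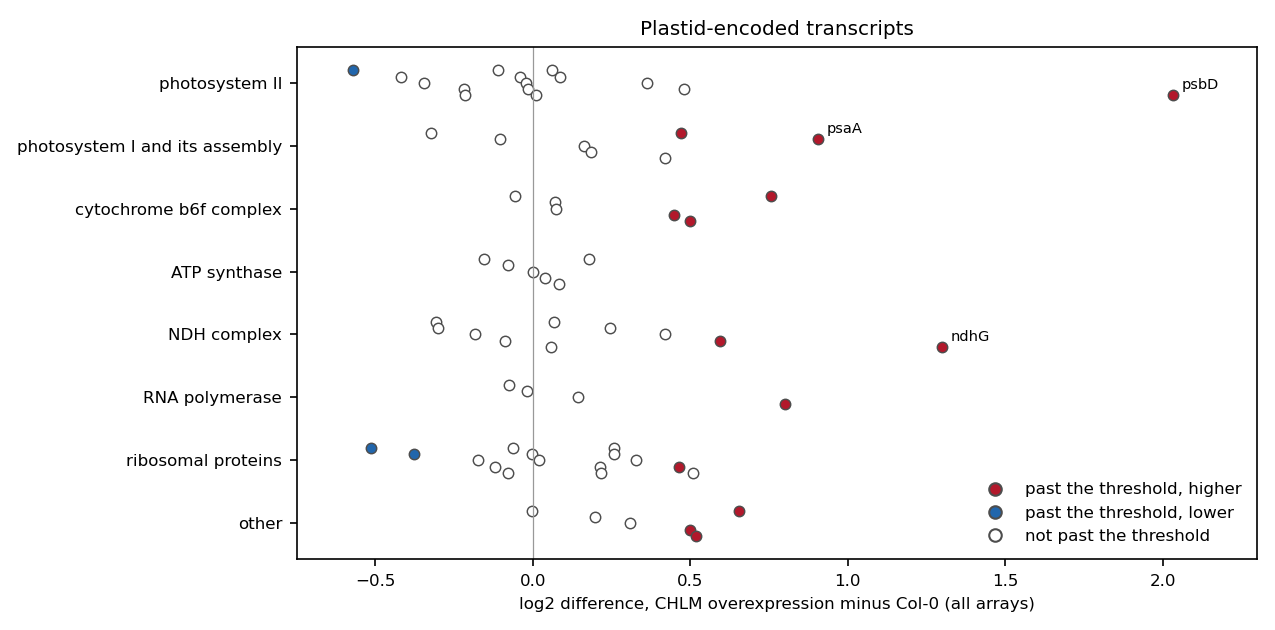
Log2 difference (CHLM overexpression minus Col-0, all arrays) of the 69 plastid-encoded transcripts, 1 point each, grouped by the complex they belong to. Red points rose and blue points fell past the threshold, and psbD at 2.03 lies far to the right of the rest of photosystem II.

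Mitochondrial transcripts were measured in 16 genes, of which 4 rose and 0 fell with all arrays (5.44% of all probe sets rose), and likewise without replicate 1 (3.28%), with 2 rises shared. The median was 0.27, and 0.31 without replicate 1. nad4L, a subunit of respiratory complex I, had 5.54, 5.32 and 5.49 in CHLM plants and 5.05, 4.54 and 4.47 in Col-0. It rose by 0.76 (SE 0.142, adjusted p = 0.00615; without replicate 1 by 0.94, adjusted p = 3.48e-04), and ccb452, of cytochrome c maturation, rose by 0.86 (SE 0.144, adjusted p = 0.00368; without replicate 1 by 0.88). The other rises with all arrays were orfX (0.41) and nad6 (0.46), neither of which passed without replicate 1. cox2 (1.0) and nad2 (0.65) passed in their place. cox2 had 5.94, 5.51 and 5.59 in CHLM plants and 6.39, 4.58 and 4.77 in Col-0, so that replicate 1 was above all CHLM arrays. The orfX and nad6 calls also ended without CHLM replicate 1 or Col-0 replicate 2, that of orfX without CHLM replicate 2 or 3, and that of nad6 without CHLM replicate 3 or Col-0 replicate 3 (adjusted p between 0.0532 and 0.114). Like plastid messages, mitochondrial messages mostly lack a stable poly(A) tail.

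Of 18 measured genes listed as organelle RNA editing and maturation factors, 4 rose and 0 fell with all arrays (5.44% of all probe sets rose) and 2 rose without replicate 1 (3.28%). MEF8S had 5.43, 5.29 and 5.32 in CHLM plants and 4.87, 4.86 and 4.65 in Col-0, a rise of 0.55 (SE 0.0889, adjusted p = 0.00268; without replicate 1 0.59). OTP81, a pentatricopeptide repeat protein of plastid editing, rose by 0.72 (SE 0.194, adjusted p = 0.0319), and without replicate 1 stood at 0.57 (adjusted p = 0.0967). CHLM replicate 1 or 2 or Col-0 replicate 3 ended the OTP81 call too (adjusted p up to 0.126). CRR41 rose by 0.52, a call that ended without CHLM replicate 2 or Col-0 replicate 3 (adjusted p = 0.0629 and 0.0517). CRR21 rose by 0.45, a call that ended without CHLM replicate 1 or 3 or Col-0 replicate 1 or 2 (adjusted p between 0.0617 and 0.0925).

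No nuclear gene of photosynthesis that could be measured passed in either fit, but most of those listed had no named probe set. The 3 measured of 17 listed light-harvesting genes lay between -0.11 and 0.29. The 5 measured of 31 photosystem and ATP synthase genes lay between -0.08 and 0.08, and the 3 of 17 Calvin cycle genes between -0.15 and 0.15. PSAN, a photosystem I subunit, had 13.74, 13.73 and 13.70 in CHLM plants and 13.67, 13.61 and 13.64 in Col-0, and PRK, the phosphoribulokinase, 12.50, 12.49 and 12.63 in CHLM plants and 12.71, 12.73 and 12.64 in Col-0. Such bright probe sets are close to the top of the array's range. Of 26 listed plastid redox and retrograde genes 6 were measured. Among these 2 rose in both fits, against 5.44% of all probe sets with all arrays and 3.28% without replicate 1. SAPX, the stromal ascorbate peroxidase, had 10.08, 10.04 and 9.91 in CHLM plants and 9.22, 9.58 and 9.30 in Col-0 (0.64, SE 0.109, adjusted p = 0.00381; without replicate 1 0.57). NTRC, the plastid thioredoxin reductase, had 9.90, 9.88 and 9.97 in CHLM plants and 9.32, 9.42 and 9.45 in Col-0 (0.52, SE 0.0947, adjusted p = 0.00549; without replicate 1 0.48). The groups did not overlap in either gene, and no left-out array ended either call.

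Wall-loosening enzymes were split. XTH19, a xyloglucan endotransglucosylase, had 8.63, 8.63 and 8.57 in CHLM plants and 7.02, 7.70 and 7.42 in Col-0, a 2.35-fold rise (1.23, SE 0.164, adjusted p = 8.44e-04; without replicate 1 1.05). XTH32 had 9.76, 9.65 and 9.75 in CHLM plants and 9.02, 8.89 and 9.01 in Col-0 (0.75, SE 0.111, adjusted p = 0.00169; without replicate 1 0.77). The expansin EXPA8 had 9.01, 8.98 and 9.23 in CHLM plants and 9.88, 9.73 and 9.68 in Col-0, a fall of -0.69 (SE 0.114, adjusted p = 0.00329; without replicate 1 -0.63). Of 29 measured expansin and xyloglucan genes 4 rose and 2 fell with all arrays, with a median of 0.03, and 3 and 2 without replicate 1. Of all probe sets 5.44% rose and 4.3% fell with all arrays, and 3.28% and 3.32% without replicate 1. EXPB1 was the other fall (-0.42), EXPB2 (0.35) and EXPA4 (0.40) the other rises. EXPA4 did not pass without Col-0 replicate 1. The calls of EXPB1, EXPB2 and EXPA4 each ended without CHLM replicate 1 and 3 further arrays, CHLM replicate 2 and Col-0 replicates 2 and 3 for EXPB1, CHLM replicate 3 and Col-0 replicates 2 and 3 for EXPB2, and CHLM replicate 2 and Col-0 replicates 1 and 3 for EXPA4 (adjusted p between 0.0545 and 0.159).

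Of 12 auxin response genes 2 fell in both fits and 0 rose with all arrays, where 4.3% of all probe sets fell and 5.44% rose (3.32% and 3.28% without replicate 1). IAA29, a repressor of auxin signalling, had 6.16, 5.83 and 6.05 in CHLM plants and 7.10, 6.96 and 7.14 in Col-0, a 2.08-fold fall (-1.05, SE 0.154, adjusted p = 0.00154; without replicate 1 -1.04). WES1, an enzyme that joins auxin to amino acids, had 7.37, 7.43 and 7.28 in CHLM plants and 7.90, 7.99 and 8.01 in Col-0 (-0.61, SE 0.0900, adjusted p = 0.00165; without replicate 1 -0.64). Both falls were uniform over the arrays. GH3.9 of the same list passed only without replicate 1 (0.41, adjusted p = 0.0474).

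Of 21 listed iron genes 5 were measured. Of these 2 fell with all arrays (4.3% of all probe sets) and 1 without replicate 1 (3.32%). BHLH101, a transcription factor of the iron deficiency response, had 3.93, 3.73 and 3.97 in CHLM plants and 4.85, 4.72 and 4.65 in Col-0 (-0.86, SE 0.201, adjusted p = 0.0170; without replicate 1 -0.81), and its call ended without CHLM replicate 2 (adjusted p = 0.0584). The CHLM signals of BHLH101 lay near the floor of the arrays, so its size of fall can be read only as a lower bound. ILR3, a related factor, fell by 0.36 (adjusted p = 0.0163), and without replicate 1 stood at -0.33 (adjusted p = 0.0553). Of 8 genes of endoplasmic reticulum stress DER2.1, a derlin, fell by 0.62 (SE 0.0929, adjusted p = 0.00182; without replicate 1 by 0.54), and ATERDJ2B rose by 0.33. Among all probe sets 4.3% fell and 5.44% rose with all arrays. The ATERDJ2B call ended without any array but Col-0 replicate 2 (adjusted p up to 0.114). Of 7 tubulin genes TUB1 passed, at -0.42 (adjusted p = 0.0468; without replicate 1 -0.52), and its call ended without CHLM replicate 1 or 3 or Col-0 replicate 2 or 3 (adjusted p between 0.109 and 0.154). SWEET11, a sucrose exporter of the phloem, fell by 0.35 (adjusted p = 0.0418), a call that ended without each array except CHLM replicate 2 (adjusted p up to 0.124).

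Some of the larger calls did not pass without Col-0 replicate 1. AT1G68620 had 4.8, 5.06 and 5.62 in CHLM plants and 8.12, 6.33 and 6.10 in Col-0, and its fall of -1.69 (adjusted p = 0.0301) became -1.05 (adjusted p = 0.0626) without replicate 1. AT4G27450 (-1.04, without replicate 1 -0.65), AT4G14020 (-0.83 and -0.61) and AT5G40690 (-0.83 and -0.45) were the next falls of this kind. AT2G32190 had 8.34, 8.11 and 8.23 in CHLM plants and 6.44, 7.59 and 7.74 in Col-0, and its rise of 0.97 (adjusted p = 0.0499) became 0.56 (adjusted p = 0.136). AT1G56060 (0.91 and 0.65), AT1G58420 (0.80 and 0.63) and AT3G49320 (0.80 and 0.68) followed. CHLM replicate 1 ended each of these 8 calls too, with adjusted p up to 0.153 over all left-out arrays. WRKY53, a transcription factor of senescence, belongs here: it had 7.76, 7.87 and 8.11 in CHLM plants and 6.87, 7.55 and 7.52 in Col-0, and its rise of 0.60 (adjusted p = 0.0314) was 0.38 (adjusted p = 0.0797) without replicate 1. CHLM replicate 2 or 3 ended its call as well (adjusted p = 0.0638 and 0.10).

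Other genes did not pass with all arrays and passed without replicate 1. GRX480, a glutaredoxin induced by salicylate, had 6.47, 5.72 and 6.59 in CHLM plants and 6.54, 7.67 and 7.86 in Col-0, with a difference of -1.1 (adjusted p = 0.0540) with all arrays and -1.50 (adjusted p = 0.00542) without replicate 1. AT3G16530 had 8.35, 8.24 and 8.99 in CHLM plants and 7.87, 10.13 and 10.15 in Col-0, and its difference was -0.86 with all arrays and -1.61 (adjusted p = 0.00182) without replicate 1. In both of these genes replicate 1 was far below the other controls and near the CHLM arrays. AT4G22470 (-1.83), AT3G23550 (-1.60) and CYP71B23 (-1.58) were the other large falls of this kind, and their differences with all arrays were -1.35, -1.08 and -1.24. CYP71B23 also passed without CHLM replicate 3 (adjusted p = 0.0218). SAG29, the sugar transporter gene also called SWEET15, had 5.50, 5.60 and 5.83 in CHLM plants and 6.38, 4.70 and 4.8 in Col-0, and without replicate 1 it was higher by 0.89 (adjusted p = 0.00108). AT5G44410 and AT5G37990 were higher by 0.90 and 0.86 without replicate 1, and AT5G44410 also passed without CHLM replicate 2 (adjusted p = 0.0367).

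The CHLD line gives a second alteration of the same pathway, at the chelatase just before CHLM, with Col-0 arrays of its own. Of the 2217 probe sets called in the CHLM line, 1048 were called in the same direction in the CHLD line, 47.3% of the CHLM calls and 37.1% of the 2822 CHLD calls, where 12.4% of all probe sets were called in the CHLD line in either direction. Without Col-0 estradiol replicate 1 the shared calls were 686, 45.7% of the CHLM calls and 24.3% of the CHLD calls. The lines share the estimate of spread and no array. Of the 153 probe sets that changed at least 2-fold in the CHLM line with all arrays, 85 were called in the same direction in the CHLD line. AT2G15560 (-3.27 in the CHLM line and -3.74 in the CHLD line), AT4G29200 (-2.90 and -3.50), AT3G23450 (2.71 and 2.97), psbD (2.03 and 1.92) and ndhG (1.3 and 1.37) were among them, and none of these 5 differed between the lines past the threshold.

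The test of the difference itself, the CHLM effect minus the CHLD effect, called 256 probe sets (1.13%), 56 (0.246%) with a positive and 200 (0.879%) with a negative difference. Without Col-0 estradiol replicate 1 it called 492 (2.16%), which include 253 of the 256. QQS was the clearest fall on the CHLM side. In the dexamethasone arrays QQS had 9.30, 8.61 and 8.91 in the CHLD line and 9.41, 9.32 and 9.02 in Col-0, so its CHLD effect was -0.31 (adjusted p = 0.220), and the difference between the effects was -3.66 (SE 0.217, adjusted p = 3.83e-07; without replicate 1 -3.64). Apart from CHLM (2.57), AT2G35750 (1.27, SE 0.174, adjusted p = 0.00133; without replicate 1 1.34) and AT1G22690 (1.23, SE 0.172, adjusted p = 0.00147; without replicate 1 1.08) rose in the CHLM line and not past the threshold in the CHLD line. AT2G35750 had 7.15, 6.98 and 6.96 in the CHLD line and 7.09, 7.13 and 6.93 in its Col-0 controls. The positive differences of AT3G62950 (1.97, adjusted p = 0.0261; without replicate 1 2.25) and AT5G02540 (1.31, adjusted p = 0.0104; without replicate 1 1.19) came with falls in the CHLD line and no call in the CHLM line, and that of AT3G62950 needed CHLM replicate 2 and Col-0 replicates 2 and 3 to pass (adjusted p up to 0.0834 without 1 of them).

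THI2.1 had a difference of -5.22 (SE 1.17, adjusted p = 0.0485), which needed each CHLM array and Col-0 replicates 2 and 3 to pass (adjusted p up to 0.130 without 1 of them), and was -6.40 (adjusted p = 2.77e-04) without replicate 1. PDF1.2 and PDF1.2b did not differ between the lines past the threshold with all arrays (adjusted p = 0.266 and 0.389) and did so without that array (-4.32, adjusted p = 9.03e-05, and -4.23, adjusted p = 3.65e-05). AT3G61490 (-4.03), AT1G26290 (-3.84) and AT1G80280 (-3.17) differed between the lines without a call in the CHLM line. AT3G61490 had 6.59, 6.46 and 6.87 in CHLM plants and 6.86, 7.11 and 7.10 in Col-0, and rose by 3.64 in the CHLD line. JMT rose by 2.24 in the CHLD line, and its difference between the lines was -2.63 (SE 0.233, adjusted p = 1.26e-05; without replicate 1 -2.50). EXPA8 stood at -0.69 in the CHLM line and 0.36 in the CHLD line, a difference of -1.05 (SE 0.161, adjusted p = 0.00330; without replicate 1 -0.99). UF3GT stood at 0.49 in the CHLM line (without replicate 1 0.27), where it did not pass, and rose by 1.24 in the CHLD line, but the difference of -0.75 did not pass (adjusted p = 0.377). IAA29 fell in both lines, by 1.05 in the CHLM line and 2.14 in the CHLD line, a difference of 1.09 (SE 0.218, adjusted p = 0.0235; without replicate 1 1.1) that needed CHLM replicates 1 and 3 and Col-0 replicate 2 to pass (adjusted p up to 0.0735 without 1 of them). The sucrose transporter gene SWEET13 stood at -0.03 in the CHLM line and rose by 2.95 in the CHLD line, a difference of -2.98 (adjusted p = 3.23e-06).

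With all arrays only 22 probe sets passed in opposite directions in the lines, 7 of them with a gene name. Of the 7, P1R1 and AT1G65920 did not pass in the CHLM line without Col-0 estradiol replicate 1 (adjusted p = 0.0735 and 0.0758). CHI, listed in RefSeq as a putative chitinase, had 6.44, 6.26 and 6.60 in CHLM plants and 8.29, 7.32 and 7.26 in Col-0, against 7.87, 8.08 and 7.78 in the CHLD line and 6.82, 6.83 and 6.49 in its Col-0 controls. The CHLM effect was -1.19 (SE 0.213, adjusted p = 0.00504; without replicate 1 -0.86), the CHLD effect 1.2, and the difference -2.39 (SE 0.301, adjusted p = 6.06e-04). AT1G65920, AT3G51660, AT1G26450, ECS1 and EXPB1 also fell in the CHLM line and rose in the CHLD line, and P1R1 rose in the CHLM line (0.34) and fell in the CHLD line. Calls of P1R1, AT3G51660, ECS1, EXPB1 and AT1G65920 in the CHLM line ended without some of the arrays compared (adjusted p up to 0.0998). That of P1R1 ended without each of the 6, and that of AT3G51660 without CHLM replicate 2 or 3 or Col-0 replicate 2 or 3. Those of ECS1 and EXPB1 ended without CHLM replicate 1 or 2 or Col-0 replicate 2 or 3. That of AT1G65920 ended without CHLM replicate 1 or 2 or Col-0 replicate 1. The EXPB1 difference between the lines (-0.77, adjusted p = 0.0192) ended without CHLM replicate 1 or 2 or Col-0 replicate 3 (adjusted p up to 0.0616).

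**Figure D5:**
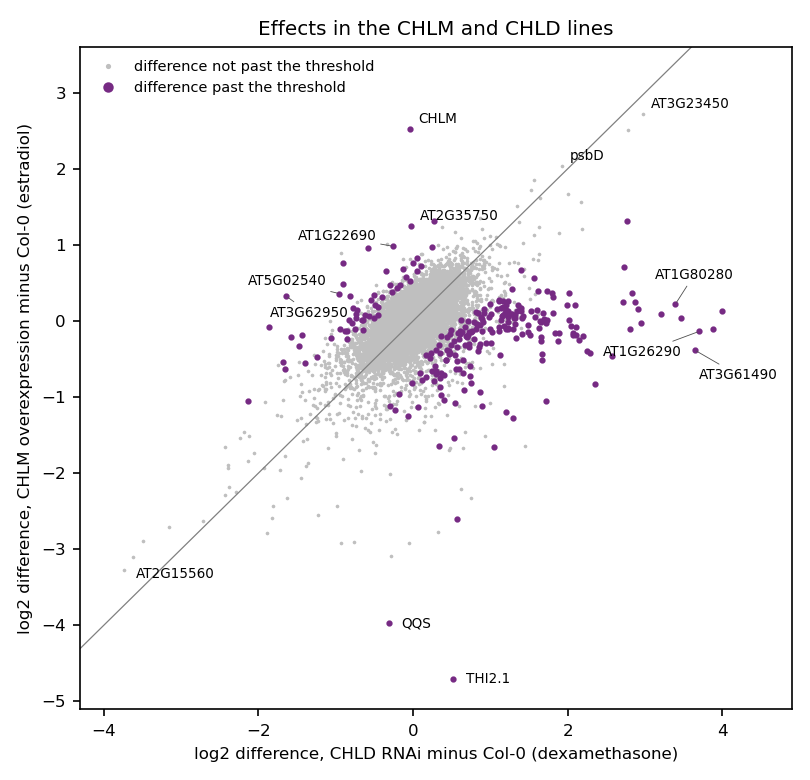
Log2 difference of every probe set in the CHLM line (y axis, CHLM overexpression minus Col-0 under estradiol, all arrays) against that in the CHLD line (x axis, CHLD RNAi minus Col-0 under dexamethasone), with the diagonal where the effects are equal. Purple points are the 256 whose effects differed past the threshold, and QQS and THI2.1 lie far below the diagonal.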

How the data were processed

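The values used were the log2 signals of 12 ATH1 arrays as deposited. The submitters' processing notes name Affymetrix Expression Console as the software that the authors used; its version, summary method and normalization are not given in the sources used here, and the log base was taken from the values. The number of arrays limits the precision. All 12 arrays were fitted as 4 groups in limma 3.58.1 (R 4.3.3, lmFit and eBayes, two-sided), with Benjamini-Hochberg adjustment over 22746 probe sets and a threshold of 0.05, and the same fit was repeated on 11 arrays without Col-0 estradiol replicate 1. The code was tested on simulated data. GEO's platform table gives 13513 probe sets 1 gene, 503 several and 8730 none, names were updated from the RefSeq table of TAIR10.1 for 13436, and a gene with several probe sets was represented by the brightest. CHLD had no named probe set and is not analysed here.

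Genes were named by a rule: CHLM, the 12 largest rises and 12 largest falls called in both fits, the 4 largest of each sign called in only 1 fit, the 5 largest differences of each sign between the lines, and the 2 largest rises and falls of each gene list. Further members of the lists are named where a count of the list is given, and these, like the genes called in opposite directions in the lines, were chosen after their values were seen. The comparison, the rule and the lists were chosen with earlier results of these data known. Nothing in the labels says that the replicates came from separate plantings, so p-values measure the spread between these samples. Replicate numbers did not pair the arrays: deviations of same-numbered CHLM and Col-0 arrays from their group means correlated at -0.105, 0.0687 and -0.0227. Alternatives were leaving out each array, a replicate block, the 6 arrays alone, trend and robust fitting, quantile normalization, a filter at a mean log2 value of 5, and array weights.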

Additional observations from a re-analysis of the deposited data

Results flagged for a closer look

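For 10 genes the effect in the CHLM line differed from that in the CHLD line by a test of the difference itself, limma with Benjamini-Hochberg adjustment over all probe sets. The difference, CHLM effect minus CHLD effect on the log2 scale, was positive for CHLM (2.57), AT3G62950 (1.97), AT5G02540 (1.31), AT2G35750 (1.27) and AT1G22690 (1.23). It was negative for AT1G80280 (-3.17), QQS (-3.66), AT1G26290 (-3.84), AT3G61490 (-4.03) and THI2.1 (-5.22). In THI2.1 and AT3G62950 the call ended without some of the arrays named above, and in the other 8 it held without each of the 6 estradiol arrays. Groups of 3 arrays are too small for a test of single outlying samples.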

How the results depend on the processing

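The 3 arrays a side limit all counts. Over the 6 fits that each left out 1 array, the calls ranged from 1156 to 1681, the higher ones from 641 to 936, the lower ones from 515 to 773, those of at least 2-fold from 123 to 196, the differences between the lines from 187 to 492, and the CHLM difference from 2.40 to 2.66. The 6 arrays fitted alone gave 855 calls, 435 higher and 420 lower, with fewer degrees of freedom. Array weights gave 447 differences between the lines. Quantile normalization gave 2190 calls and a CHLM difference of 2.49, and trend with robust fitting 2281 calls. With the replicate number as a block there were 2038 calls, 1092 higher and 946 lower, 162 of at least 2-fold and 286 differences between the lines. Of the 92 named genes, the block ended 3 calls and added 5. Fitting the 6 arrays alone ended 22, and array weights and trend with robust fitting 10 each. Trend with robust fitting ended those of AT1G54020, PDF1.2 and PDF1.2b. Differences near 0 changed sign in 3 genes that had no call: AT1G26290 (-0.26 to 0.0383 over the 6 left-out arrays, positive without CHLM replicate 2), AT5G15700 (-0.0133 without CHLM replicate 2 to 0.13) and CLV3 (-0.14 to 0.01, positive without Col-0 estradiol replicate 3). The cause of these shifts was not tested. CHLM lay near the top of the values.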
